A study of Mus musculus with 6 samples.

Results

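The 10 genes described here, Pdgfra, Pdgfrb, Dlk1, Ly6a, Cd34, Cd24a, Dpp4, Pi16, Zfp423 and Thy1, encode surface proteins, a secreted or membrane-bound regulator and a transcription factor by which adipocyte progenitors are recognised. They were taken by symbol from the 21959 genes of the deposited table, and all 10 were found on 1 row each. RNA-seq had been performed on 200 mg of full-thickness dorsal skin of male C57BL/6 mice, with 3 mice in each of 2 groups that formed a cohort of their own. The mice were shaved on the back at 7 weeks of age, while the hair follicles were in telogen, the resting phase. The vehicle group received 30% dipropylene glycol in water and the rebamipide group 3% rebamipide, a quinolinone drug used as a mucosal protective agent, both applied to the skin each day for 7 days. The sequencing addressed how rebamipide acts on skin in hair regeneration, and elsewhere the study used PDGFRA as a marker of adipocyte precursors. Bulk skin holds every cell type of the tissue, so fewer cells of a type and less RNA per cell cannot be told apart in these values.

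Dermal white adipose tissue lies under the reticular dermis and arises from the same embryonic fibroblast lineage as that layer. Its progenitors carry the receptor tyrosine kinase PDGFRA and, in sorted preparations, the surface proteins CD34, SCA-1 (encoded by Ly6a) and, in an early subset, CD24. In subcutaneous fat, cells with DPP4 and PI16 line the connective tissue around the lobules and give rise to committed preadipocytes. DLK1 holds preadipocytes undifferentiated and is lost on maturation, whereas ZFP423 drives commitment by raising the expression of Pparg, the main regulator of adipocyte differentiation. None of these markers is restricted to progenitors. PDGFRB also marks pericytes and vascular smooth muscle, CD34 and SCA-1 are carried by endothelial cells, CD24 by keratinocytes of the hair follicle, and THY1 by T cells, nerves and most fibroblasts.

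Rebamipide-treated skin had less Dpp4 and more Dlk1 and Zfp423 than vehicle-treated skin, and the other 7 genes did not pass the test. The quasi-likelihood test of edgeR was applied to the counts after TMM normalization, which scales the libraries so that most genes balance, and p-values were adjusted over all 14875 genes tested by the method of Benjamini and Hochberg. Dpp4 was 7.87-fold lower (log2 fold change -2.98 ± 0.61, SE, adjusted p = 0.0238), Dlk1 3.48-fold higher (1.80 ± 0.46, adjusted p = 0.0417) and Zfp423 2.48-fold higher (1.31 ± 0.35, adjusted p = 0.0474). With 2 of the 10 genes called higher and 1 called lower, the shares are to be read against 14.1% of all genes tested called higher and 6.51% called lower in the same comparison. The median log2 fold change of the 10 genes was -0.81, and that of all genes tested was -0.17. With scaling by total counts alone both medians were lower, at -1.34 and -0.78.

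Vehicle libraries held 38676018 to 39915276 counts and rebamipide libraries 32709801 to 34706852, and mitochondrially encoded genes took 2.59% to 5.36% of them against 13.3% to 22.0%. The libraries differed in tissue make-up as well as in treatment label. Levels are given as normalized CPM, the counts of a gene scaled to a common library size with the TMM factor. Summed over 6 basal keratinocyte genes, the level was 2180 to 3690 CPM in vehicle and 1090, 692 and 144 CPM in rebamipide replicates 1, 2 and 3. The library labelled rebamipide replicate 3 had no count for Krt14, the defining keratin of that layer, where 0 counts allow up to 3, so a defining marker of full-thickness skin was absent from it. Ucp1, the defining gene of brown adipocytes, had 0 counts in each vehicle library and 2670 to 8590 CPM in the rebamipide libraries. Fast skeletal muscle genes summed to 5380 to 26600 CPM in vehicle and 33900, 7180 and 274 CPM in rebamipide replicates 1, 2 and 3. The 7 genes of the growing hair follicle, none of them called, summed to 14600, 6640 and 162 CPM in vehicle replicates 1, 2 and 3 and to 803, 1.17 and 0 CPM in rebamipide replicates 1, 2 and 3, where 0 counts allow up to 3 for each gene. Krt71, a keratin of the inner root sheath of growing follicles, was at 6600 and 3050 CPM in vehicle replicates 1 and 2 and at 71.2 CPM in vehicle replicate 3. The levels in vehicle replicates 1 and 2 thus go against skin at rest, and the vehicle libraries differed widely from each other in these genes. Nothing in the labels gives a batch or the depth of the excision, so make-up and treatment cannot be told apart. For the 10 genes, values without single libraries are given where they bear on a call.

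**Figure D1:**
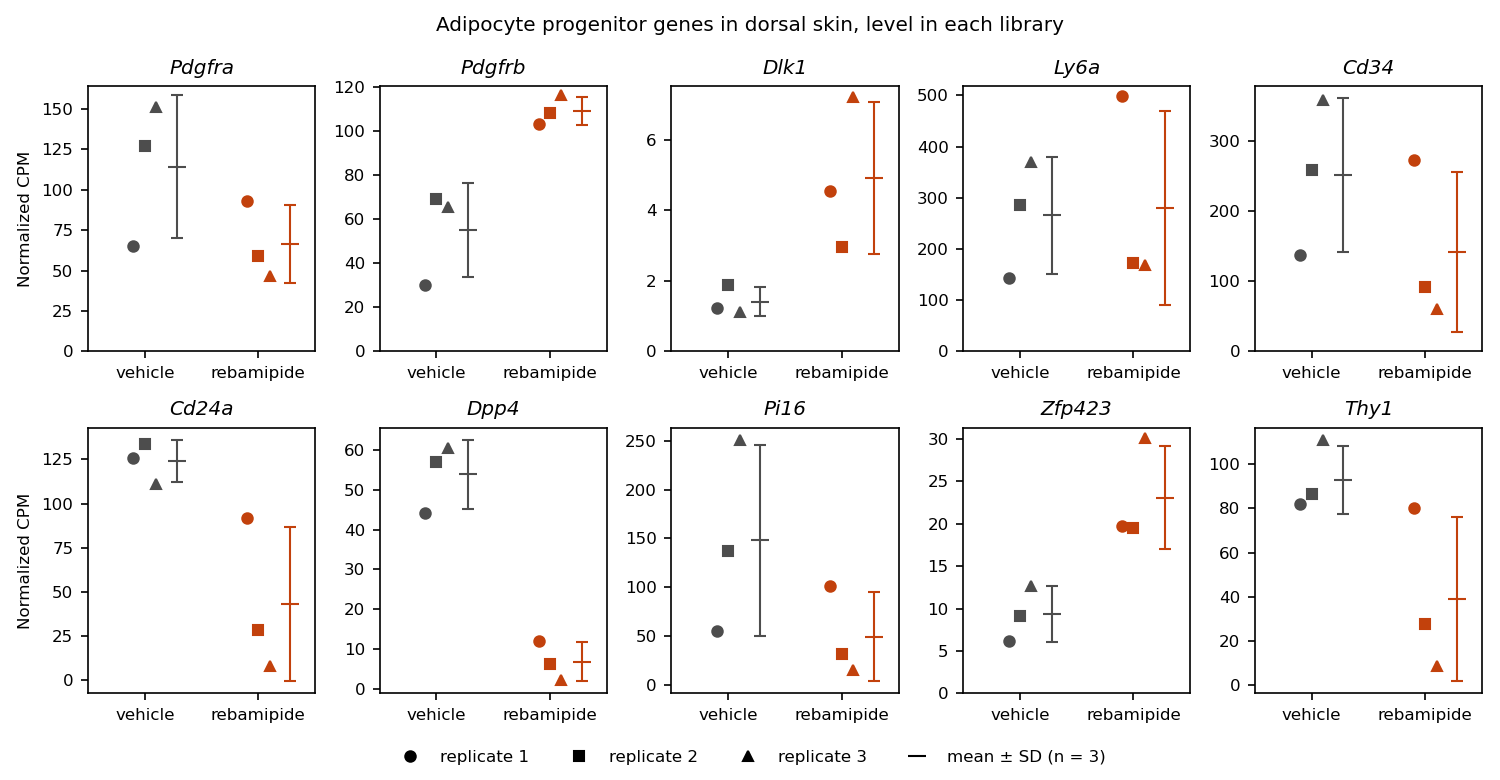
Level of each of the 10 genes in normalized CPM (linear axes from about 0), with 1 point per library, the replicate given by the symbol, and the mean ± SD of the 3 libraries of each group beside them. The rebamipide points lie above all vehicle points for Pdgfrb, Dlk1 and Zfp423 and below all of them for Cd24a, Dpp4 and Thy1. The groups overlap for the other 4 genes.

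The upstream windows of 3 genes are shown because these genes passed the test. Each is the 150 bases before a RefSeq transcription start on GRCm38.p6, a build other than that of the deposited positions, written 5′ to 3′ on the gene's strand. Capitals mark matches on either strand to 5 motifs. These were the GC box GGGCGG, the C/EBP motif TTGCNNAA and the EBF core CCCNNGGG, of which the latter pair belong to factor families active in adipogenesis, and the CCAAT and TATA boxes of the general machinery.
Dpp4, chr2:62412232-62412381, minus strand: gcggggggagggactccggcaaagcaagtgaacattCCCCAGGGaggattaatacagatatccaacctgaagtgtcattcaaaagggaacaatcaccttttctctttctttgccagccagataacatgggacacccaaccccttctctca
Dlk1, chr12:109452673-109452822, plus strand: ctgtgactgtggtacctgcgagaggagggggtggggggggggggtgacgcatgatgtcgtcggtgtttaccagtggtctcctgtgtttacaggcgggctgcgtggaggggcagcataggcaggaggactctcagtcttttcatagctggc
Zfp423, chr8:87959596-87959745, minus strand: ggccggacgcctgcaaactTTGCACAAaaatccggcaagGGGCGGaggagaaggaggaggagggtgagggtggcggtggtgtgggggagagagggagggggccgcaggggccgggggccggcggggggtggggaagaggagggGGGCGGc
The Dpp4 window held 1 EBF core, which began 114 bases before the start and occurs in 7.72% of 32843 RefSeq windows of the same length. The Dlk1 window held none of the 5 motifs. The Zfp423 window held GC boxes at 111 and 7 bases before the start (28.6% of windows hold at least 1) and the C/EBP motif at 131 bases (5.46% of windows), and no match overlapped another. It also held 10 CG dinucleotides, more than 71.2% of the windows, against 6 in the Dlk1 window, 2 in the Dpp4 window and a median of 4. The C/EBP motif was found in the window of Pdgfra too, 118 bases before the start, on chromosome 5, and a CCAAT box (24.5% of windows) in that of Pi16, 64 bases before the start. A TATA box, searched as TATAAA (7.58% of windows), was found in none of the 6 member windows matched by symbol. These are matches of letters only and say nothing of binding.

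Dpp4 (ENSMUSG00000035000, chromosome 2, 62160417 to 62242575, minus strand, GRCm39) encodes dipeptidyl peptidase 4, a surface peptidase by which interstitial progenitors are recognised and which is not restricted to them. Its normalized level was 44.1, 57.0 and 60.5 CPM in the 3 vehicle libraries and 12.1, 6.24 and 2.21 CPM in the rebamipide libraries. The groups did not overlap, and the highest rebamipide library was well under the lowest vehicle library. The spread was wider under rebamipide, where the highest library was 5.44 times the lowest, than under vehicle (1.37 times). This separation did not depend on how the libraries were scaled, since the FPKM values, which are scaled by gene length and summed counts, were 8.91, 11.1 and 11.6 against 1.77, 0.736 and 0.264 and edgeR on total counts alone gave -3.51 (adjusted p = 0.0203). Without rebamipide replicate 3, the library with no Krt14 count, the edgeR log2 fold change was -2.55 (adjusted p = 0.0252), and without rebamipide replicate 1 it was -3.67 (adjusted p = 0.0134). The call was lost in the edgeR fit without vehicle replicate 1, vehicle replicate 2, vehicle replicate 3 or rebamipide replicate 2, where the adjusted p-values were 0.057, 0.0988, 0.0544 and 0.108, and was kept by DESeq2 without each library in turn. Dpp4 fell over rebamipide replicates 1, 2 and 3 in the same order as the keratinocyte and follicle genes. Its log2 level relative to the lists of such cells overlapped between groups, with a difference of -0.30 for bulge stem cells, -0.54 for the dermal papilla, 0.40 for basal keratinocytes, 1.25 for suprabasal keratinocytes and 4.45 for the growing follicle. Each of these lists held genes with 0 counts in a rebamipide library, all 7 of them for the growing follicle. There an offset of 0.05 CPM sets the level, and these differences depend in part on it. The part of keratinocyte and follicle cells in the values of Dpp4 was not tested beyond these ratios.

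Pi16 (ENSMUSG00000024011, chromosome 17, 29536654 to 29549567, plus strand) encodes peptidase inhibitor 16, the partner marker of the interstitial progenitors. It was measured at 54.8, 137 and 251 CPM under vehicle and at 101, 31.1 and 15.3 CPM under rebamipide. The groups overlapped, because rebamipide replicate 1 lay above vehicle replicate 1, and the log2 fold change of -1.58 ± 0.83 did not pass edgeR's test (adjusted p = 0.204). It ran from -0.93 without vehicle replicate 3 to -2.66 without rebamipide replicate 1 in the 6 edgeR fits without 1 library, none of which called it, while DESeq2 without rebamipide replicate 1 called Pi16 lower (-2.68, adjusted p = 0.000894). The ratio of Dpp4 to Pi16 per length, taken within each library and so free of any scaling, was 0.81, 0.419 and 0.243 under vehicle and 0.12, 0.202 and 0.146 under rebamipide. Dpp4 was thus lower relative to Pi16 in each rebamipide library than in any vehicle library, with a difference of -1.52 on the log2 scale (two-sided exact permutation test, p = 0.1, the smallest that 3 against 3 can give, and 0.141 after adjustment over the 45 pairs of the 10 genes).

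The other genes by which DPP4+ interstitial progenitors are recognised were measured as a list of 12. None was called higher and 2 were called lower, Sema3c and Efhd1, where 6.51% of all genes were called lower. The median log2 fold change of the list was -1.43, beside -1.23 for a list of 9 general fibroblast genes and -0.17 for all genes. Sema3c, a secreted semaphorin, was at 27.4, 52.8 and 69.4 CPM under vehicle and 15.1, 10.4 and 3.66 CPM under rebamipide (log2 fold change -2.36, edgeR adjusted p = 0.0409). Efhd1, a mitochondrial calcium-binding protein, had a log2 fold change of -1.63 (edgeR adjusted p = 0.0436). Of the 6 edgeR fits without 1 library, the one without rebamipide replicate 1 kept the calls of Sema3c and Efhd1, with ranges of -2.82 to -1.96 and -2.12 to -1.41, and DESeq2 kept both without each library. The 10 not called included Cd248, a surface sialomucin of stromal cells (-0.86), Cd55, a complement regulator (-1.31), and Ly6c1 (0.79), a gene also abundant in endothelial cells, which was the one member of this list with a positive value.

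Dlk1 (ENSMUSG00000040856, chromosome 12, 109418749 to 109429262, plus strand) encodes delta-like non-canonical Notch ligand 1, also called preadipocyte factor 1. It was the least abundant of the 10 genes, with 52 to 92 counts per vehicle library and 76 to 189 per rebamipide library. Normalized levels were 1.24, 1.87 and 1.11 CPM under vehicle and 4.54, 2.96 and 7.21 CPM under rebamipide, so the groups were apart. On FPKM, which the authors scaled by the summed counts of each library, the values were 0.28, 0.407 and 0.238 against 0.746, 0.391 and 0.963, and rebamipide replicate 2 fell among the vehicle libraries. The call was likewise absent with scaling by total counts alone (1.18, edgeR adjusted p = 0.0858). In the 6 edgeR fits that each left out 1 library the log2 fold change stayed between 1.42 and 2.07 and none reached the threshold (adjusted p from 0.0507 to 0.117), while DESeq2 called it in all 6 (adjusted p from 8.07e-05 to 0.0226). Dlk1 is imprinted, and of 12 imprinted genes of immature tissue 8 were in the table and 6 had enough counts to test. Cdkn1c, a cyclin-dependent kinase inhibitor, was the one of those called, with 11.6, 14.2 and 13.0 CPM under vehicle and 28.6, 58.1 and 59.4 CPM under rebamipide (1.91, edgeR adjusted p = 0.0153), a call that edgeR lost without vehicle replicate 2 or rebamipide replicate 2. Grb10, an adaptor of the insulin receptor, did not pass (-0.20), and Dio3 and Rtl1, the neighbours of Dlk1 in its imprinted cluster, did not pass the expression filter and were not tested. Dio3, a deiodinase, had 188, 180 and 10 counts under vehicle and 5, 2 and 0 under rebamipide, lower without overlap but with 1 vehicle library close to the rebamipide libraries, while Rtl1 had at most 12 counts in any library.

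Zfp423 (ENSMUSG00000045333, chromosome 8, 88388438 to 88686223, minus strand) encodes a zinc finger transcription factor of committed preadipocytes that is also expressed in cells of the vessel wall. Levels were 6.15, 9.14 and 12.7 CPM under vehicle and 19.8, 19.5 and 30.1 CPM under rebamipide, with no overlap. On FPKM the groups met, at 1.4, 2.01 and 2.74 against 3.27, 2.59 and 4.06, since rebamipide replicate 2 lay just under vehicle replicate 3. With total counts alone the log2 fold change was 0.69 (edgeR adjusted p = 0.133). The call was also lost in edgeR with RLE size factors (adjusted p = 0.0526), upper quartile factors (0.0627) or no filter on low counts (0.0579), and in limma on log2(FPKM + 1) (0.121). The edgeR fits that left out 1 library each gave 1.05 to 1.60, with the call kept without rebamipide replicate 1 (adjusted p = 0.0499) or vehicle replicate 3 (0.0427) and lost without vehicle replicate 1, vehicle replicate 2, rebamipide replicate 2 or rebamipide replicate 3 (0.0913, 0.167, 0.122 and 0.122).

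The factors that act with or after ZFP423 in adipogenesis were measured as lists. Of 12 transcription factors that promote adipogenesis, 8 were called higher and none lower, where 14.1% of all genes tested were called higher. The median change of the 12 on the log2 scale was 1.77 (1.16 with total counts alone). Pparg rose from 19.5, 41.6 and 62.8 CPM to 169, 305 and 345 CPM (2.73, edgeR adjusted p = 0.0192). Cebpa, which maintains the adipocyte programme with Pparg, was at 124, 173 and 243 CPM under vehicle and 569, 752 and 875 CPM under rebamipide (2.02, edgeR adjusted p = 0.0146). Srebf1, a regulator of fatty acid synthesis, and Stat5a, a mediator of growth hormone signalling, were also higher, by 1.26 and 2.05 on the log2 scale. The remaining 4 called were Zfp467, Ebf2, Klf15 and Ebf1, with log2 fold changes from 1.37 to 2.84. Of 12 inhibitors of adipogenesis none was called in either direction (median -1.02), and 3 of the 12 had a positive value. By mean FPKM over all 6 libraries the 2 most abundant were Hes1 and Klf2, with log2 fold changes of -1.08 and 1.66. Under vehicle Gata3 (26.6 FPKM), Sfrp2 (19.8) and Wnt5a (13.5) were above Klf2 (9.95), and their log2 fold changes were -3.34, -1.57 and -0.96. Pparg and Cebpa are high in mature adipocytes as well. Genes of that cell type summed to 2500 to 6940 CPM under vehicle and 15300 to 30600 CPM under rebamipide. Of the 12, 8 were called higher, against the same 14.1% of all genes. Those called included Lipe and Pnpla2, the lipases of stored fat (log2 fold changes of 3.05 and 3.89), Fabp4, a fatty acid carrier (3.31), and Plin1, a lipid droplet coat protein (2.61). Cfd, the adipokine adipsin, did not pass (0.34), and neither did Lep (-0.53) and Retn (-0.23), which had negative values. Genes of the brown adipocyte list summed to 212 to 367 CPM under vehicle and 4750 to 12500 CPM under rebamipide. Of the 8, 5 were called higher, where 14.1% of all genes tested were. Beside Ucp1 the 5 included Cidea, at 15.6 to 58.3 CPM under vehicle and 1550 to 3540 CPM under rebamipide, Prdm16, at 4.13 to 8.04 and 27.8 to 57.5 CPM, and Otop1, at 0.12 to 0.528 and 191 to 421 CPM. Elovl3 of the same list was lower without overlap, at 129 to 238 against 33.3 to 83.1 CPM, and did not pass (-1.45, edgeR adjusted p = 0.0575). Ppargc1a (2.30) and Zic1 (0.09) did not pass either. The part of mature white or brown adipocyte RNA in the rise of these factors was not tested.

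Among genes of committed preadipocytes 3 of 10 were called higher and none lower (median 0.69, and 0.09 with total counts alone), where 14.1% of all genes were called higher. They were Col4a2 and Col4a1, the chains of basement membrane collagen IV, with log2 fold changes of 1.21 and 1.00, and Cd36, the fatty acid translocase, with 2.36. Of the 6 edgeR fits without 1 library, 3 kept the call of Col4a2, 1 that of Col4a1 and 2 that of Cd36. DESeq2 kept each without any 1 library. Lpl, lipoprotein lipase, was at 469 to 931 CPM under vehicle and 1000 to 3950 CPM under rebamipide, and did not pass (2.02, edgeR adjusted p = 0.0598). Lpl and Cd36 also belong to the mature adipocyte list. Of the 10, 4 had negative values, among them Bmp3, a bone morphogenetic protein, at 4.57, 6.92 and 14.5 CPM under vehicle and 3.85, 2.18 and 1.45 CPM under rebamipide (-1.79, edgeR adjusted p = 0.0741), and Icam1, an adhesion molecule (-0.80). F3 encodes CD142, the surface marker of regulatory stromal cells that restrain adipogenesis in fat depots. It was at 38.8 to 72.2 CPM under vehicle and 70.2 to 115 CPM under rebamipide (0.66, edgeR adjusted p = 0.157).

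**Figure D2:**
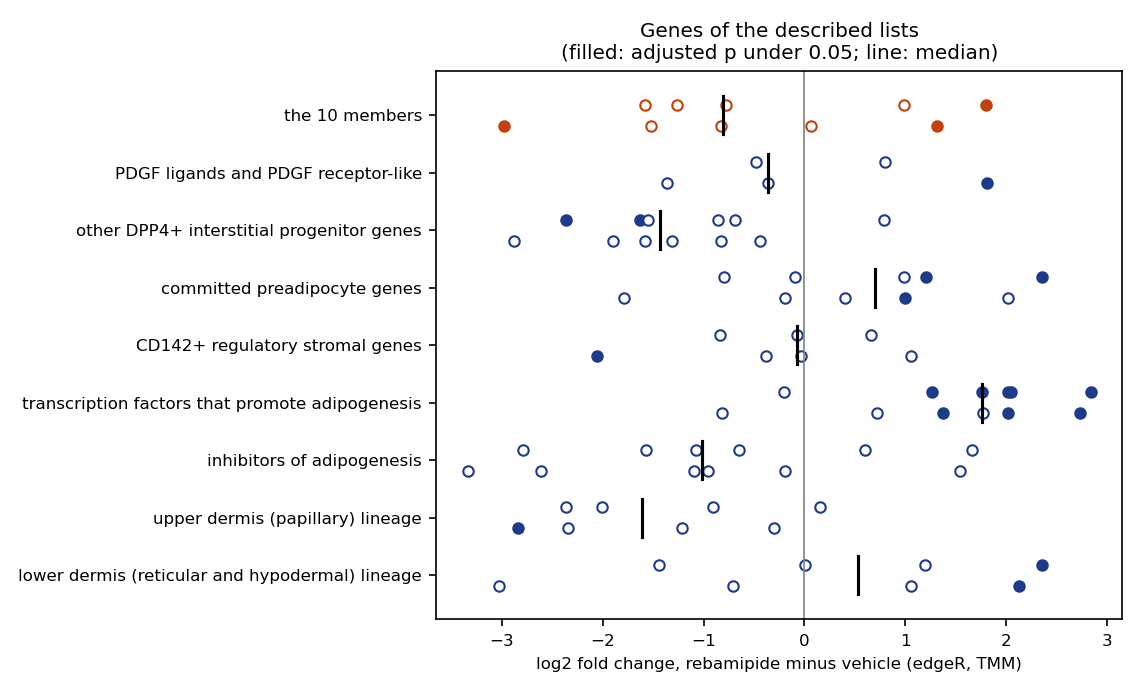
log2 fold change (rebamipide minus vehicle, edgeR with TMM) of the 10 genes (orange) and of the genes of 8 described lists (blue), 1 point per gene, filled where the adjusted p-value was under 0.05, with the median of each row as a vertical line. The row of transcription factors that promote adipogenesis has 8 filled points and a median of 1.77, and the row of the 10 genes has 3 filled points and a median of -0.81.

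Pdgfra and Pdgfrb encode the tyrosine kinase receptors of platelet-derived growth factors. The study stained PDGFRA protein in skin as a precursor marker and reported it elevated under rebamipide, with more overlap with PLIN1. It also reported more colonies from mature adipocytes cultured with rebamipide. The values here are RNA of bulk skin and do not measure that protein. Pdgfra (ENSMUSG00000029231, chromosome 5, 75312953 to 75358876, plus strand) was measured at 64.9, 127 and 151 CPM under vehicle and at 93.2, 59.2 and 46.3 CPM under rebamipide. The groups overlapped through vehicle replicate 1, which lay below rebamipide replicate 1, and the log2 fold change was -0.78 ± 0.40 (edgeR adjusted p = 0.192). Under no edgeR setting did Pdgfra reach the threshold, and its log2 fold change was negative in each of the 21 alternatives. DESeq2 called it lower without vehicle replicate 1 (-1.08, adjusted p = 0.0199) or rebamipide replicate 1 (-1.10, adjusted p = 0.0359) and not with all 6 libraries.

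Pdgfrb (ENSMUSG00000024620, chromosome 18, 61178222 to 61218133, plus strand) was at 30.2, 69.1 and 65.6 CPM under vehicle and at 103, 108 and 116 CPM under rebamipide. All rebamipide libraries lay above the vehicle libraries, and they were close together, the highest being 1.12 times the lowest. The log2 fold change of 0.99 ± 0.33 missed the threshold in edgeR (adjusted p = 0.0793) and passed in DESeq2 (0.98, adjusted p = 0.0468). It passed in edgeR without vehicle replicate 1, where the fold change was smaller and the spread too (0.67, adjusted p = 0.0454). FPKM values overlapped, with 7.04, 15.6 and 14.5 under vehicle and 17.4, 14.8 and 15.9 under rebamipide, and scaling by total counts alone gave 0.37 (adjusted p = 0.355).

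The receptor pair changed places within the libraries. Per length, the ratio of Pdgfra to Pdgfrb was 1.17, 1.00 and 1.25 in the vehicle libraries and 0.495, 0.298 and 0.219 in the rebamipide libraries. Pdgfra was thus at or above Pdgfrb in each vehicle library and below it in each rebamipide library, a difference of -1.84 on the log2 scale (two-sided exact permutation test, p = 0.1, the smallest possible, 0.141 adjusted). Of 4 PDGF ligands and the receptor-like gene Pdgfrl, 1 was called higher and none lower, where 14.1% of all genes tested were called higher and 6.51% lower. Pdgfb, the ligand released by endothelial cells and platelets that recruits PDGFRB-bearing pericytes, was at 12.1, 18.2 and 23.3 CPM under vehicle and 50.6, 64.7 and 73.0 CPM under rebamipide (1.81, edgeR adjusted p = 0.0141), a call that edgeR lost without vehicle replicate 2 or rebamipide replicate 2. Pdgfa, a ligand of PDGFRA, had a log2 fold change of -0.36, and Pdgfrl one of -1.36, and neither passed. Pdgfa was at 12.8, 10.9 and 14.2 CPM under vehicle and 10.8, 8.42 and 10.4 CPM under rebamipide. It was thus lower without overlap, as were 24.0% of all genes tested. In treated skin of other mice the study reported the opposite, with more Pdgfa by quantitative PCR and more PDGF protein by immunoassay.

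Of the surface antigens used to sort progenitors, none of 4 passed the test with all libraries. Ly6a (ENSMUSG00000075602, chromosome 15, 74866726 to 74869880, minus strand) was the most abundant of the 10 genes, at 144, 285 and 370 CPM under vehicle and 498, 172 and 169 CPM under rebamipide. Rebamipide replicate 1 was the highest of the 6 libraries and the other rebamipide libraries lay within the vehicle range. The log2 fold change of 0.07 ± 0.56 (edgeR adjusted p = 0.932) changed sign under 8 of 21 alternatives, so no direction is given. Ly6a belongs to a cluster of similar Ly6 genes, and how reads shared among them were counted is not given in the sources used here.

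Cd34 (ENSMUSG00000016494, chromosome 1, 194621127 to 194643587, plus strand), which encodes a sialomucin of progenitors, endothelium and bulge stem cells, was at 137, 258 and 358 CPM under vehicle and 272, 91.5 and 60.3 CPM under rebamipide. Replicate 1 of the rebamipide group exceeded vehicle replicates 1 and 2, so the groups overlapped (log2 fold change -0.83 ± 0.64, edgeR adjusted p = 0.362). Without that library DESeq2 called Cd34 lower (-1.72, adjusted p = 0.00255) and edgeR did not (adjusted p = 0.0541). The ratio of Ly6a to Cd34 per length was steady under vehicle, at 6.35, 6.67 and 6.26, and was 11.1, 11.4 and 17.0 under rebamipide, a log2 difference of 1.00 with no overlap (two-sided exact permutation test, p = 0.1, 0.141 adjusted).

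Cd24a (ENSMUSG00000047139, chromosome 10, 43454280 to 43460261, plus strand), which encodes a small anchored mucin-like protein, was at 126, 134 and 111 CPM under vehicle and 91.9, 28.6 and 8.32 CPM under rebamipide. Thy1 (ENSMUSG00000032011, chromosome 9, 43954681 to 43959876, plus strand), which encodes the anchored surface protein CD90, was at 82.2, 86.4 and 111 CPM under vehicle and 80.3, 27.9 and 8.43 CPM under rebamipide. For both genes the vehicle libraries lay close together and the rebamipide libraries below them were spread over 11.0 and 9.52 times, with replicate 1 near the vehicle level and replicate 3 lowest. The log2 fold changes were -1.52 ± 0.79 for Cd24a (edgeR adjusted p = 0.196) and -1.26 ± 0.74 for Thy1 (edgeR adjusted p = 0.245). Without rebamipide replicate 1 edgeR called Cd24a lower (-2.73, adjusted p = 0.0297) and Thy1 lower (-2.35, adjusted p = 0.0391). With all 6 libraries limma on log2(FPKM + 1) called Cd24a lower (-2.55, adjusted p = 0.0445). The ratio of Cd24a to Thy1 overlapped between groups, at 1.77, 1.80 and 1.16 against 1.33, 1.19 and 1.15. Keratinocyte and follicle genes ran in the same order over the rebamipide libraries, the 7 suprabasal genes summing to 1380, 895 and 5.38 CPM in replicates 1, 2 and 3 against 1270 to 5420 CPM under vehicle, and none of the 7 was called. In log2 level relative to the bulge stem cell list, Cd24a (0.82) and Thy1 (1.17) were higher under rebamipide without overlap. So was Thy1 relative to basal keratinocytes (1.88), where Cd24a overlapped (1.53). Both overlapped relative to suprabasal keratinocytes (2.38 and 2.72) and the growing follicle (5.58 and 5.92). The share of all genes apart relative to these lists was not computed. The part of those cells in the values of Cd24a and Thy1 was not tested beyond these ratios.

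The study also measured Thy1, Itgb1 and Pdgfra in cultured dedifferentiated fat cells of the rat, as markers of adipocyte precursors. None of the 3 was called in either direction. Itgb1, integrin beta 1, was at 252, 295 and 342 CPM under vehicle and 235, 343 and 313 CPM under rebamipide, with a log2 fold change of 0.00 ± 0.24 (edgeR adjusted p = 0.995).

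**Figure D3:**
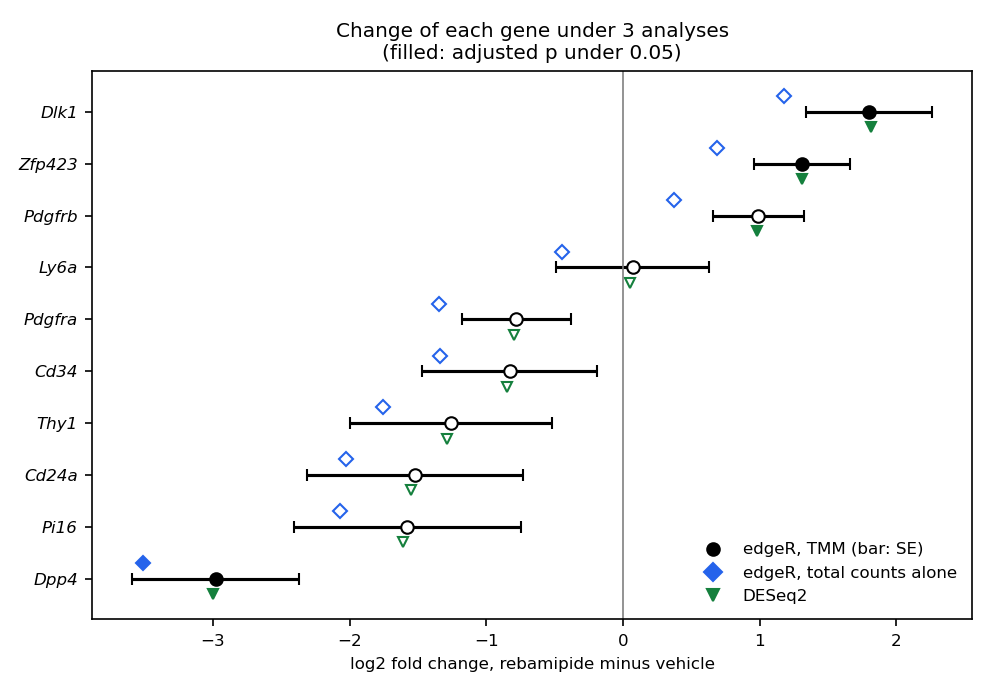
log2 fold change (rebamipide minus vehicle) of the 10 genes in edgeR with TMM (black, bars are SE), edgeR with total counts alone (blue) and DESeq2 (green), filled where the adjusted p-value was under 0.05. Dpp4 is filled in all 3 analyses, Dlk1 and Zfp423 in 2, Pdgfrb in DESeq2 alone, and the total-count values lie to the left of the others for every gene.

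Across the 10 genes, normalized CPM of all rebamipide libraries exceeded all vehicle libraries for 3 genes (Pdgfrb, Dlk1, Zfp423) and fell below them for 3 (Cd24a, Dpp4, Thy1), where 24.5% and 24.0% of all genes tested did so. On FPKM no member was above without overlap and the same 3 genes were below, where 13.0% of all genes were above and 47.9% were below. Ordered per length by mean FPKM under vehicle, the genes ran Ly6a (272 ± 111, SD, n = 3), Cd24a (59.4 ± 6.66), Cd34 (42.4 ± 17.7), Thy1 (38.5 ± 5.43), Pi16 (28.4 ± 18.4), Pdgfra (14.0 ± 5.13), Pdgfrb (12.4 ± 4.64), Dpp4 (10.5 ± 1.43), Zfp423 (2.05 ± 0.67) and Dlk1 (0.308 ± 0.0883). Ly6a, Zfp423 and Dlk1 stood apart from their neighbours by more than 1 SD of each, and each other gene overlapped its neighbour. Under rebamipide the order was Ly6a (199 ± 160), Cd34 (16.8 ± 15.6), Pdgfrb (16.0 ± 1.34), Cd24a (14.6 ± 16.3), Thy1 (11.3 ± 12.0), Pi16 (6.76 ± 7.03), Pdgfra (5.51 ± 2.74), Zfp423 (3.31 ± 0.733), Dpp4 (0.924 ± 0.77) and Dlk1 (0.70 ± 0.289). There Ly6a stood apart from Cd34 and Zfp423 from Dpp4, and the other neighbours overlapped. Pdgfrb moved from the seventh to the third place and Dpp4 fell below Zfp423.

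Ratios within a library carry no scaling, so all 45 pairs of the 10 genes were compared. The groups did not overlap for 32 pairs, or 71.1%, where 51.1% of 81862410 pairs of 12796 tested genes with a mean of at least 50 counts and a count above 0 in each library did not overlap. The pairs share genes and are not independent of each other. Dpp4 was apart in 9 of its 9 pairs and was lower relative to each of the other 9 genes in the rebamipide libraries. The ratio of Dlk1 to Dpp4 had the largest difference of the 45, from 0.0315, 0.0366 and 0.0205 under vehicle to 0.421, 0.531 and 3.64 under rebamipide (5.02 on the log2 scale). Dpp4 to Zfp423 came next, with 6.37, 5.54 and 4.23 against 0.541, 0.284 and 0.0652 (-4.62). In contrast, the ratio of Pdgfrb to Zfp423 overlapped, at 5.03, 7.74 and 5.29 against 5.33, 5.69 and 3.92, and so did that of Pi16 to Thy1, with a difference of 0.03. Every pair without overlap had a two-sided exact permutation p = 0.1, or 0.141 after adjustment over the 45 pairs, so none could pass the threshold with 3 mice per group.

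Each gene was also set against the marker genes of the cell types in the tissue. The measure was log2(normalized CPM + 0.05) of the gene minus the mean of this over the list in the same library. For the 9 fibroblast genes, none of which was called, the median change on the log2 scale was -1.23, and they summed to 12500 to 18700 CPM under vehicle and 16000, 3660 and 1920 CPM in rebamipide replicates 1, 2 and 3. Their most abundant genes, Col1a1 and Col3a1, had log2 fold changes of -1.20 and -0.82. Relative to this list 5 genes were higher under rebamipide without overlap, namely Dlk1 (3.30), Zfp423 (2.93), Pdgfrb (2.67), Ly6a (1.57) and Cd34 (0.57), where 28.5% of all genes tested were, and Dpp4 was lower (-1.67), where 2.4% of all genes were. Dpp4 relative to the fibroblast genes was -3.08, -3.16 and -3.46 under vehicle and -5.29, -4.45 and -4.97 under rebamipide. Pdgfra (0.83), Pi16 (-0.17), Thy1 (-0.20) and Cd24a (-0.54) overlapped between groups. The exact permutation p was 0.1 for each of the 6 without overlap and 0.167 after adjustment over the 10 genes.

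Vessel cell markers were compared in the same way, and 14.1% of all genes tested were called higher. Of 8 endothelial genes 4 were called higher, Kdr, Tie1, Cdh5 and Emcn, the junction gene Pecam1 did not pass (1.21), and the list summed to 258 to 620 CPM under vehicle and 1190 to 1650 CPM under rebamipide. Of 8 mural genes, those of pericytes and smooth muscle, Kcnj8 alone was called higher (2.03, edgeR adjusted p = 0.0272), and the list summed to 548 to 765 against 926 to 1360 CPM. The abundant mural genes Acta2 and Rgs5 had log2 fold changes of 0.27 and 1.96 and did not pass. Pdgfrb relative to the mural list was -0.56, 0.25 and -0.15 under vehicle and 0.07, -0.05 and -0.15 under rebamipide, a difference of 0.11 with overlap (two-sided exact permutation test, p = 0.8). Zfp423 (0.37) and Dlk1 (0.74) overlapped relative to the mural list as well, as did Ly6a, while the other 6 genes were lower, where 57.7% of all genes tested were lower and 8.59% higher. Relative to the endothelial list 8 of 10 were lower and relative to the mature adipocyte list 9 of 10, near the 76.2% and 82.5% of all genes that were, so these counts are no result about the 10 genes. The part of vessel cells in the values of Pdgfrb, Zfp423 and Dlk1 was not tested beyond these ratios.

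**Figure D4:**
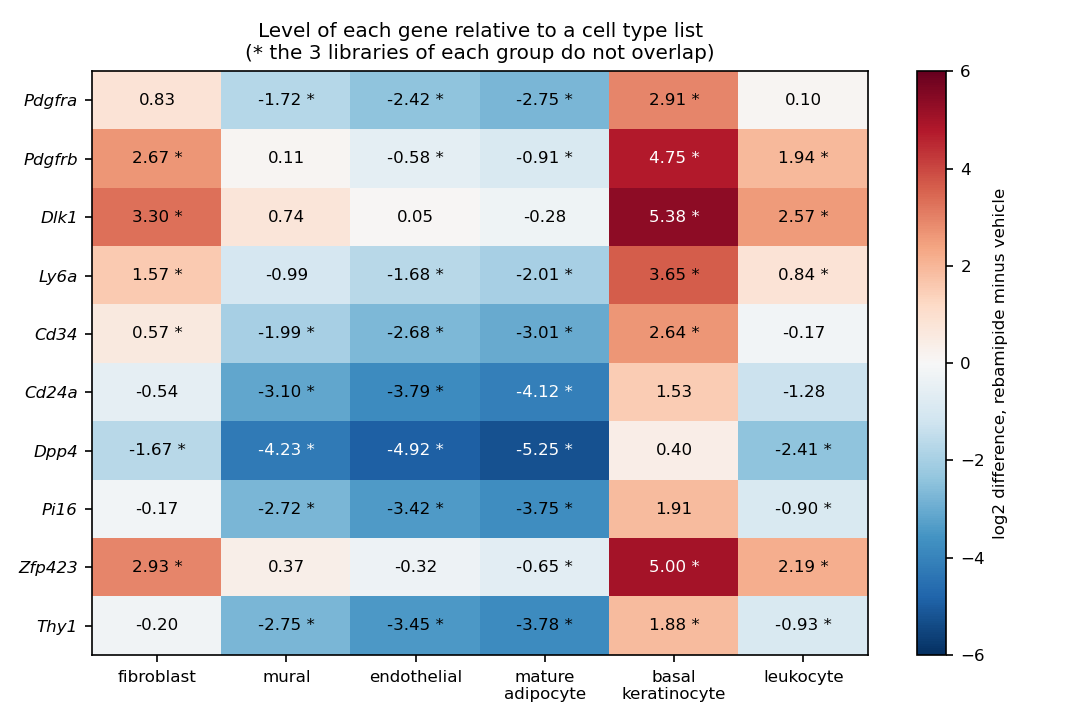
Difference between rebamipide and vehicle, on the log2 scale, in the level of each of the 10 genes relative to 6 cell type lists, in red where higher and blue where lower, with an asterisk where the 3 libraries of each group did not overlap. Dpp4 is lower relative to each list but that of basal keratinocytes (0.40, with overlap), and Pdgfrb, Dlk1 and Zfp423 have no asterisk in the mural column (0.11, 0.74 and 0.37).

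Lists of the dermal lineages and of other cells were also measured, where 14.1% of all genes tested were called higher and 6.51% lower. Of 8 genes of the upper dermis, Trps1, a GATA-type transcription factor needed in hair follicle development, was called lower (-2.84) and none higher, with a median of -1.61. Lrig1 and Apcdd1, the abundant genes of that list, had log2 fold changes of 0.15 and -2.01 and did not pass. Of 8 genes of the lower dermis and hypodermis, Cd36 and Gpx3, a secreted glutathione peroxidase, were called higher (2.36 and 2.13) and none lower, with a median of 0.53 (-0.04 with total counts alone). Gpx3 kept its call in 12 of 21 alternatives and in 1 of the 6 edgeR fits without 1 library. Dermal papilla genes, of which 1 of 8 was called lower (Sostdc1, -2.35, beside Wif1, -2.98, which did not pass), summed to 42.6 to 201 CPM under vehicle and 4.96 to 48.9 CPM under rebamipide. Leukocyte genes (0 of 8 called) summed to 577 to 1470 against 359 to 1250 CPM. T cell genes (0 of 5 tested called) summed to 12.9 to 29.9 against 4.77 to 16.4 CPM. Of the 8 bulge genes Postn was called lower (-1.83), and of 5 slow muscle genes Myh7, Myl3 and Tnnc1 were called higher. Of 7 Schwann cell and nerve genes S100b was called higher (3.58). It was the 1 gene of that list with a positive value, and the median of the list was -0.85.

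**Figure D5:**
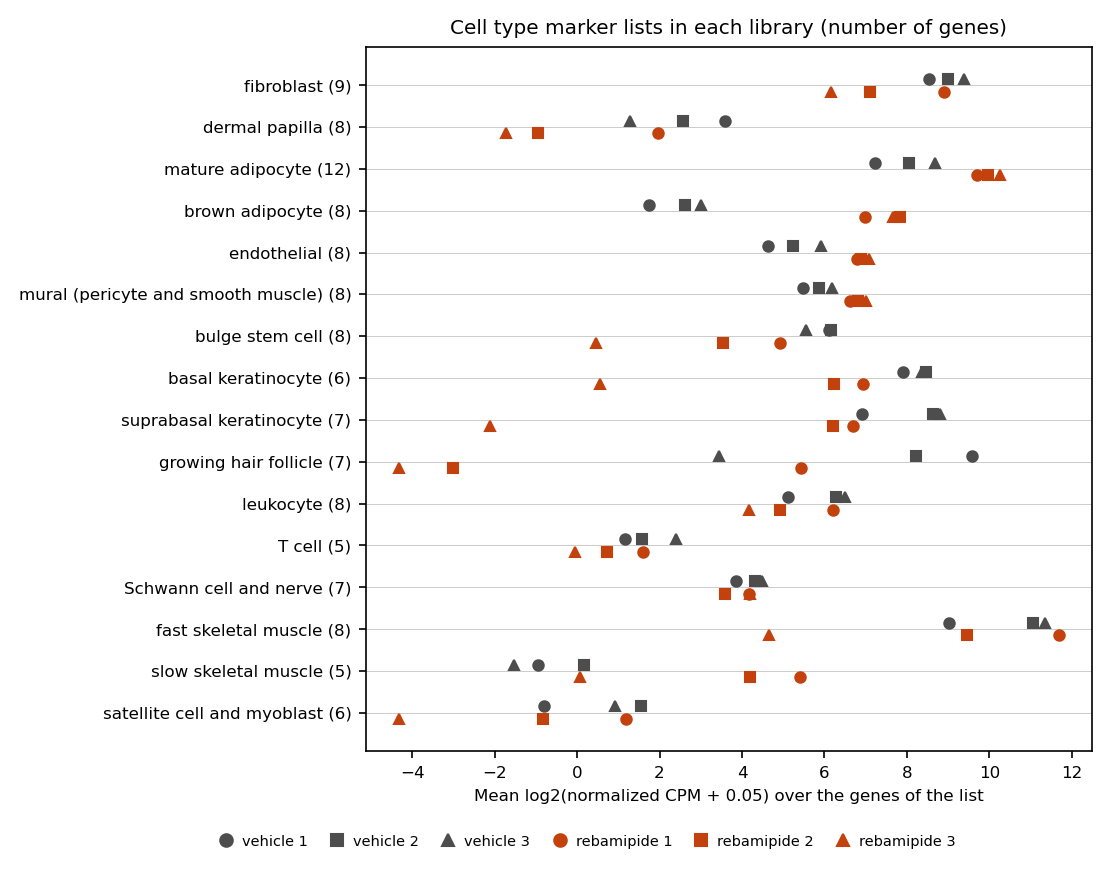
Mean level of 16 cell type marker lists in each library, as mean log2(normalized CPM + 0.05) over the genes of the list (their number in brackets), vehicle in grey and rebamipide in orange, the replicate given by the symbol. Rebamipide libraries lie to the right for adipocyte, endothelial and mural lists, and rebamipide replicate 3 lies far to the left for the keratinocyte, follicle and fast muscle lists.

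Likeness between genes over the 6 libraries is given without a test, because the points share the 2 groups and their make-up. Pearson's r of log2 CPM was 0.99 for Cd34 with Pi16, 0.98 for Pdgfra with Pi16 and 0.99 for Cd24a with Thy1. It was 0.93 for Pdgfrb with Zfp423 and 0.86 for Dlk1 with Zfp423, and -0.91 between Dlk1 and Dpp4. Among 13378 genes with a mean of at least 50 counts, those with the highest r were Naip5, Septin3 and Cnrip1 for Pdgfra, Tep1, Susd5 and Acsm5 for Pdgfrb, and Kctd15, Aplnr and Slc29a2 for Dlk1. For Ly6a they were Tnfrsf1b, H2-T23 and Aldh3b1, for Cd34 Dpt, Clec3b and Fgf13, for Cd24a Cldn10, Mcub and Pak1, and for Dpp4 Camk1d, Arhgef5 and Zdhhc9. For Pi16 they were Sh3bgrl3, Nbl1 and Fam114a1, for Zfp423 Gpr182, Tns2 and Npr1, and for Thy1 Irf5, Tmem132c and Capg. The lowest of the first-ranked values was 0.982, for Kctd15 with Dlk1.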

How the data were processed

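Poly-A RNA of 6 dorsal skins (3 vehicle, 3 rebamipide, groups from the labels) was sequenced on a DNBSEQ-T7. The authors deposited counts, which are whole reads per gene without normalization, and FPKM, which follow from count, gene length and library sum. The submitters' processing notes name fastp 0.22.0, HISAT2 2.1.0, HTSeq 0.9.1 and GRCm39. The annotation release and the strand setting are not given in the sources used here.

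The members and all gene lists were chosen with earlier results of these data known. The 14875 genes passing filterByExpr were tested by edgeR 4.0.16 in R 4.3.3 with TMM factors and the quasi-likelihood test, and called at a Benjamini-Hochberg adjusted p under 0.05. Levels are normalized CPM as mean ± SD or per library, and comparisons of different genes used FPKM. Single ratios were tested with two-sided exact permutation tests in SciPy 1.17.1, whose smallest p-value is 0.1. Replicates within a group differed by more than counting noise, with a chi-square of 79.1 to 713.6 for each degree of freedom. Total counts were 32709801 to 39915276, and intervals for them would cover counting error only. The models were tested on simulated data. Alternatives were DESeq2 1.42.0, limma-voom and limma 3.58.1 on log2(FPKM + 1), other scalings and filters, a replicate block, the thresholds of the study and each library left out. DESeq2 without single libraries, all member pairs and the cell type lists other than those of fibroblasts and mature adipocytes were added after seeing the data. The members and, of each list, up to 4 called genes, by p-value, and the 2 most abundant were named, with the 3 genes of highest Pearson's r for each member. Lists of keratinocyte, bulge, follicle, immune, nerve and muscle cells are given by counts, sums, medians, ratios or called genes, beside Krt14 and Krt71. Satellite cell genes, with 0 of 6 called, are not named. Cd55, Pdgfa, Zfp467, Ebf2, Klf15, Ebf1, Dio3, Rtl1, Gata3, Sfrp2, Wnt5a, Bmp3, Icam1, Lep, Retn, Elovl3, Ppargc1a and Zic1 were named after their values were seen. Apart from F3, genes of the CD142+ regulatory stromal list are not reported here. A symbol on more than 1 row (22 symbols) was read from the row with most counts.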

Additional observations from a re-analysis of the deposited data

How the results depend on the processing

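Of the 21 alternatives, Dpp4 kept its call in 16, Dlk1 in 12 and Zfp423 in 11, each with the same direction in all 21, and Pdgfrb passed the threshold in 5. The 2 members called higher became 1 with RLE size factors, upper quartile factors, no filter on low counts, the replicate block and DESeq2 without vehicle replicate 2 (Dlk1 lost with the block, Zfp423 in the other 4), 0 with total counts alone and with limma on log2(FPKM + 1), and 0 to 1 in edgeR without 1 library. The 1 called lower became 2 with limma on log2(FPKM + 1) and with DESeq2 without vehicle replicate 1, 6 with DESeq2 without rebamipide replicate 1 (Pdgfra, Cd34, Cd24a, Dpp4, Pi16 and Thy1), 0 with the replicate block, and 0 to 3 in edgeR without 1 library. The log2 fold change of Ly6a, 0.07, was -0.45 with total counts alone, -0.03 in limma-voom, -0.64 in limma on log2(FPKM + 1), -0.08 with the replicate block, -0.25 and -0.63 in DESeq2 without vehicle replicate 1 and rebamipide replicate 1, and -0.64 to 0.41 in edgeR without 1 library. Over all genes, 2093 higher and 968 lower became 1258 and 3752 with total counts alone. DESeq2 gave 2534 lower, a filter of 10 counts in every sample 1512, limma on log2(FPKM + 1) 4809 and the thresholds of the study 2161. DESeq2 without single libraries gave 3416 higher and 3043 lower without vehicle replicate 3, 3657 and 4189 without rebamipide replicate 1, and 2016, 2273 and 1865 lower without vehicle replicate 1, rebamipide replicate 2 and rebamipide replicate 3. The 33 list genes called and picked for naming kept their direction in all settings that tested them, and DESeq2 called each in all 6 fits without 1 library, while edgeR called none of them without vehicle replicate 2 or rebamipide replicate 2. EdgeR without 1 library gave 0 to 2810 higher and 0 to 1971 lower. It called 0 genes without vehicle replicate 2, where 4116 had an unadjusted p under 0.05 and DESeq2 called 2097 higher and 1419 lower, and 1 higher and 0 lower without rebamipide replicate 2, where 4062 had an unadjusted p under 0.05. In these fits the group of 2 shares its spread with the group of 3, and the cause of the differences was not tested beyond the fewer libraries.

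The replicate numbers were not taken to pair the mice. Deviations of same-numbered libraries correlated at -0.016, -0.038 and 0.003. With the replicate block the log2 fold changes were -3.26 for Dpp4 (edgeR adjusted p = 0.0548), 1.75 for Dlk1 (0.113) and 1.34 for Zfp423 (0.0455), with 1432 genes higher and 855 lower. Depth limits Dlk1 most, with 52 to 189 counts per library.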
